A study of Rattus norvegicus with 46 samples.

Results

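A group of 9 genes of the glutathione system was followed through abdominal skin of irradiated and unirradiated rats: Gclc, Gclm, Gss, Slc7a11, Gsr, Gpx1, Gpx2, Gpx3 and Gpx4. They were found by their symbols in the array annotation, and each was measured by 1 feature, so that they are 9 of the 23188 features tested. Glutathione is the most abundant small thiol of animal cells. Glutamate-cysteine ligase joins glutamate and cysteine, with Gclc encoding its catalytic subunit and Gclm its modifier subunit, and glutathione synthetase (Gss) adds glycine. Slc7a11 is the exchanger that brings in cystine, the source of the cysteine. Glutathione peroxidases spend glutathione to reduce peroxides, and glutathione reductase (Gsr) turns oxidised glutathione back into the reduced form. In skin this system meets the oxidants formed by radiation, and several of its genes are known targets of NRF2, the transcription factor that RTA-408 activates.

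The 46 single-colour Clariom S arrays came from 9 Sprague-Dawley rats biopsied repeatedly with a 5 mm punch. The baseline group held 6 untreated arrays of day -10. Irradiated skin with RTA-408 and irradiated skin with the DMSO vehicle had 3 arrays on each of days -4, 1, 3, 7 and 14, and unirradiated skin with vehicle had 2. Injections were given on days -7, -5, -3 and 0, so every group after baseline had received DMSO or RTA-408. Irradiation was a course of 4 fractions of 10 Gy within 8 days, 40 Gy in all, from a 6 MeV electron beam, and day -4 fell within it. The labels do not give the age of the rats. The second unirradiated array came from 1 rat up to day 3 and from another rat on days 7 and 14. No unirradiated skin with RTA-408 was analysed here, so the drug was compared within irradiated skin.

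Signals are log2 values as deposited, and a difference is one of mean log2 signal on that scale. The scale reaches 19.66 to 19.93, beyond the 16 of a raw scanner, so differences are not turned into folds. A difference was called when limma's adjusted p, over all 23188 features of a comparison and day, was under 0.05. Values after ± are SD for group means and standard errors for differences. All 9 genes were above the median of the negative-control features on each of the 46 arrays, with the smallest margin, 0.42, for Gss. Each punch holds many cell types, and fewer cells of a type cannot be told apart here from less RNA per cell. The keratinocyte genes Krt14 and Krt1 were at 15.7 or more on every array, while the melanocyte genes Tyr and Tyrp1 were at or below the negative controls on all 46. Hair shaft keratins (Krt85, Krt86 and Krt35, the 3 of 6 listed that the array measured) varied most between punches, from a mean of 4.9 to 17.8. Skeletal muscle genes were high in most punches but averaged 6.5 in baseline replicate 2, 7.1 in RTA-408 day -4 replicate 1 and 9.3 in unirradiated day 1 replicate 1. Spike-in controls separated the arrays into 3 sets of 18 (set I), 10 (set II) and 18 (set III). All baseline arrays were in set I, and all arrays of days 3, 7 and 14 were in sets II and III.

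In windows around their starts, Gclm and Gpx2 hold letters that match the core of an antioxidant response element, the sequence to which NRF2 binds. Binding was not measured. The motif searched was TGACNNNGC on either strand, in windows from 250 bases before to 50 after each start in RefSeq (build GRCr8). It occurred in 12.1% of the 33469 windows searched, and in 2 of the 10 windows of the genes followed here. Windows were found for 8 of the 9 genes, all except Gsr, with 3 windows for Gpx4. The windows of Gclm (chr2:213031885-213032184, plus strand) and Gpx2 (chr6:101229984-101230283, minus strand) are shown because they hold the motif. They are written 5′ to 3′ along the gene with the match in capitals, which in both lies on the opposite strand, so that the motif reads tgactaagc for Gclm and tgacttagc for Gpx2.
Gclm: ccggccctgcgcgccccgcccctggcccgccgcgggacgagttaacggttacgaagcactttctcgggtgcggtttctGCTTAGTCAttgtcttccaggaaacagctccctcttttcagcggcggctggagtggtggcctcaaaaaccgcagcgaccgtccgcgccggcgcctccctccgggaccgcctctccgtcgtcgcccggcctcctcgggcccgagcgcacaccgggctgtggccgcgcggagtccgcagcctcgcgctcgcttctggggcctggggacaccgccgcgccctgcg
Gpx2: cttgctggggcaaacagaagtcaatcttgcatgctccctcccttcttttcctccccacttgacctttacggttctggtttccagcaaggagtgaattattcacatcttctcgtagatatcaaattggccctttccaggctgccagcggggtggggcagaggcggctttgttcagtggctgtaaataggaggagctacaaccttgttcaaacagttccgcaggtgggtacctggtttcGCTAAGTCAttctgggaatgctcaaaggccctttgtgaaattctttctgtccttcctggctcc
Counted from the start, with bases before it negative, the match spans positions -172 to -164 in Gclm and -13 to -5 in Gpx2. Those letters were not in the windows of Gclc, Gss, Slc7a11, Gpx1, Gpx3 or Gpx4, nor in that of the quinone reductase Nqo1. The related AP-1 site TGANTCA, found in 7.33% of all windows, was in none of these windows.

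**Figure D1:**
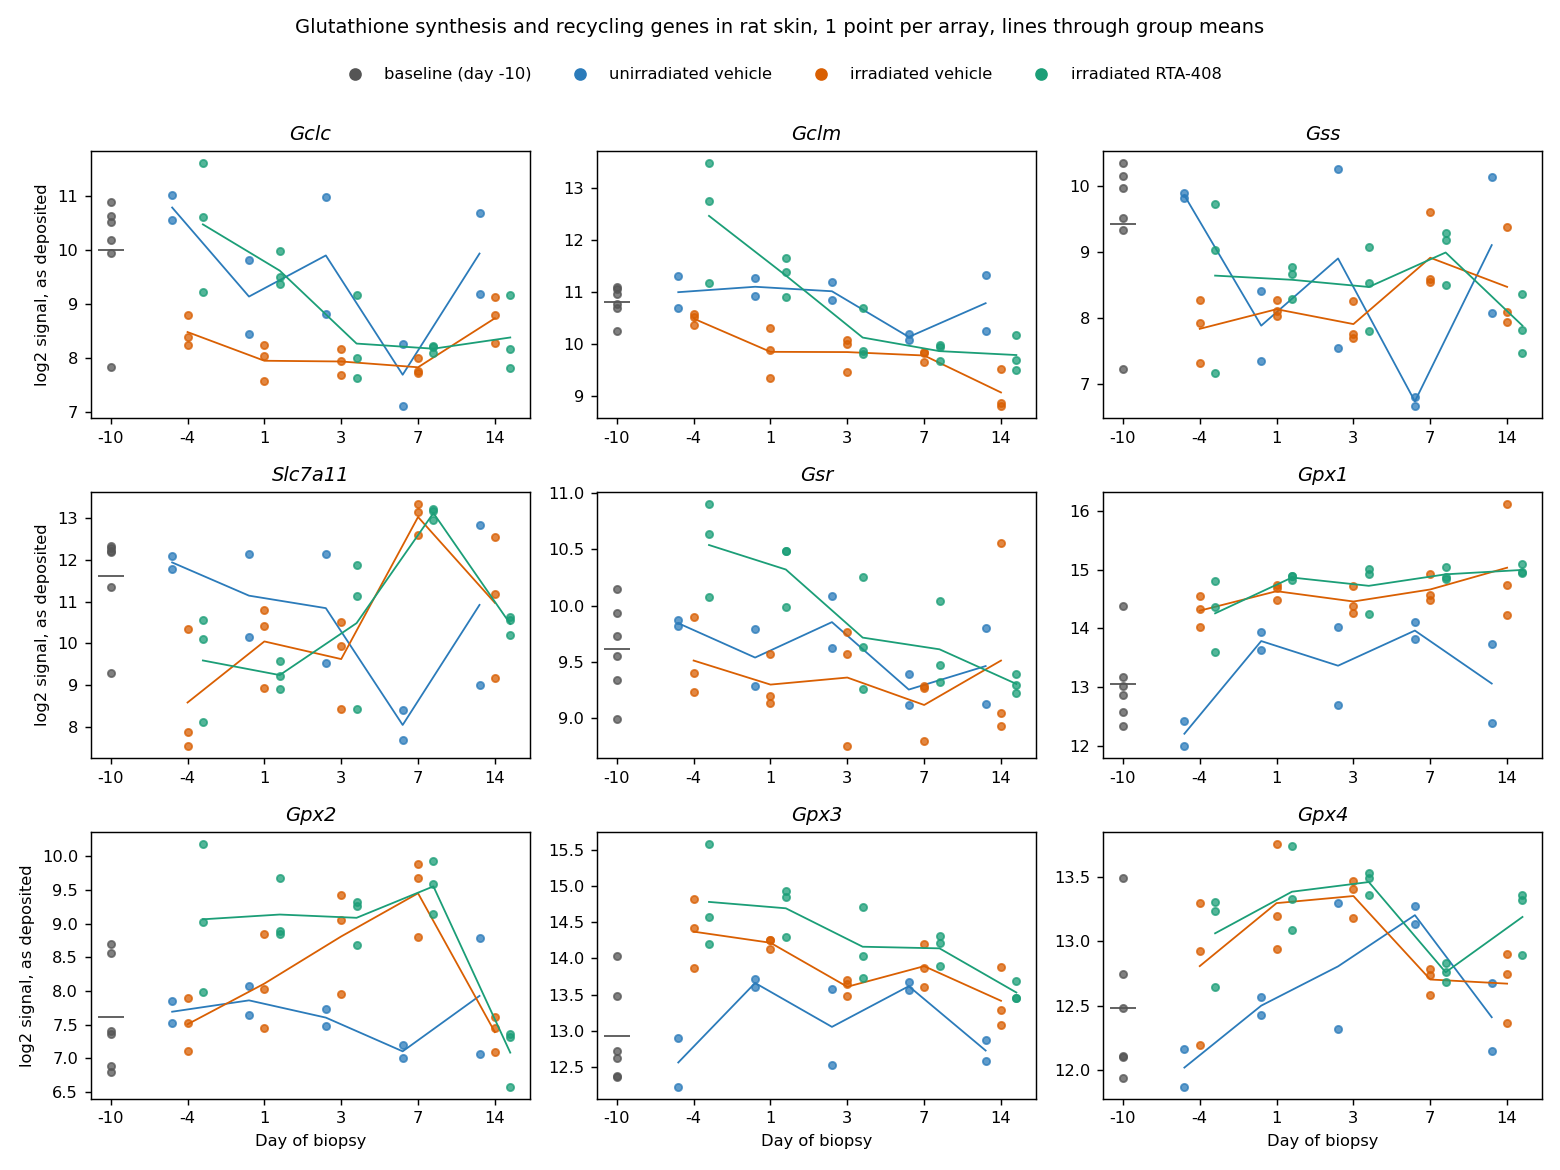
Deposited log2 signal (vertical axis) of the 9 genes on each of the 46 arrays by day of biopsy (horizontal axis, not to scale), with 1 point per array, a line through the means of each arm and a bar at the baseline mean. For Gclc and Gclm the 3 RTA-408 arrays are above the 3 irradiated vehicle arrays on days -4 and 1, Slc7a11 parts the irradiated arrays (12.59 to 13.34) from the unirradiated ones (7.70 and 8.41) on day 7, and Gpx1 is above both unirradiated arrays in every irradiated vehicle array of each day.

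The first question was whether RTA-408 moved these genes in irradiated skin. Among the 9, Gclm on day -4 alone passed the test, with a difference of 1.98 ± 0.36 (adjusted p = 0.01716, limma). The other 8 genes on that day, and all 9 on days 1, 3, 7 and 14, did not pass. Nqo1, a known NRF2 target taken as the check of the drug, was higher by 3.88 on day -4 and by 3.77 on day 1, and both passed (adjusted p = 0.002551 and 0.001815, limma). Its calls were lost without RTA-408 day -4 replicate 2 (adjusted p = 0.1175), vehicle day -4 replicate 2 (0.05326) or vehicle day 1 replicate 3 (0.06008). The share of all features called was 0.0474% on day -4 (0.0431% higher), 0.0733% on day 1, 0.00431% on day 3 and 0% on days 7 and 14. The number of features with an unadjusted p under 0.05 on days 7 and 14 was 613 and 2904.

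Gclm, the modifier subunit that raises the efficiency of glutamate-cysteine ligase, measured 13.47, 12.74 and 11.17 with RTA-408 on day -4. The vehicle arrays measured 10.37, 10.52 and 10.57, so the groups did not overlap, and the RTA-408 arrays also spread far more. The call was kept without RTA-408 replicate 3 and lost without any of the other 5 arrays. Without RTA-408 replicate 1, the highest array, the difference was 1.47 (adjusted p = 0.6283), and without the others it was 1.84 to 2.02 (adjusted p = 0.06986 to 0.3021). In spike-in set I the difference was 2.56 (2 arrays against 2, adjusted p = 0.2185), and in set II 0.80 (1 against 1). In the fit of these 6 arrays alone the adjusted p was 0.9991. On day 1 Gclm was again apart, at 11.39, 11.65 and 10.90 against 9.88, 9.35 and 10.31 (difference 1.47 ± 0.36, adjusted p = 0.213). That difference passed with array weights (adjusted p = 0.02423) and with the spike-in set as a block (adjusted p = 0.04409). Within set I it was 1.43 and did not pass (2 arrays against 2, adjusted p = 0.9927), and within set II it was 1.55 (1 against 1). Other cell type genes lay with the day -4 values of Gclm. Hair shaft keratins were at 14.8, 12.2 and 5.2 in the RTA-408 arrays, in the same order as Gclm, and at 5.4, 9.9 and 8.8 with vehicle. The mean of 6 macrophage genes was 10.71, 10.18 and 9.66 with RTA-408 and 8.72, 9.17 and 9.52 with vehicle, without overlap. Skeletal muscle genes averaged 7.1 in RTA-408 replicate 1, the array highest in Gclm. They were at 17.1 and 18.1 in the other RTA-408 arrays and at 13.2 to 18.3 with vehicle. On day 1 the macrophage means overlapped, at 10.93, 9.98 and 10.87 against 10.93, 10.62 and 9.15. The part of these cell types in the Gclm differences was not tested. Days 3 and 7 gave 0.28 and 0.08 for Gclm, with overlapping arrays, and day 14 gave 0.72 (9.69, 9.49 and 10.17 against 9.52, 8.80 and 8.87), also with overlap.

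Gclc, the catalytic subunit, had drug differences like those of its partner but wider errors. On day -4 the RTA-408 arrays were at 11.60, 10.60 and 9.21 and the vehicle arrays at 8.25, 8.80 and 8.39. All RTA-408 arrays were above all vehicle arrays, and the difference of 1.99 ± 0.60 did not pass (adjusted p = 0.799). It was 2.51 within set I and 0.97 within set II. On day 1 the arrays were at 9.50, 9.98 and 9.36 against 8.24, 7.57 and 8.03 (1.67 ± 0.60, adjusted p = 0.9999), again without overlap. The hair shaft, macrophage and skeletal muscle values given for Gclm on day -4 stand beside these arrays too. On day 1 the hair shaft keratin means were at 5.1, 10.7 and 7.1 against 5.8, 5.3 and 10.6. The part of the hair shaft, of macrophages and of skeletal muscle in the Gclc differences was not tested. Gclc differed by 0.33 on day 3, 0.34 on day 7 and -0.36 on day 14.

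Gss showed less. Its drug differences ran from 0.80 ± 0.64 on day -4, where RTA-408 arrays of 9.73, 9.02 and 7.18 enclosed the vehicle arrays of 7.32, 8.27 and 7.93, to -0.59 ± 0.64 on day 14. On day 1 its arrays did not overlap, but the lowest RTA-408 array (8.29) and the highest vehicle array (8.28) nearly met. For the cystine exchanger Slc7a11 the drug differences were 1.00, -0.80, 0.86, 0.09 and -0.50 over the 5 days, each with an SE of 0.95, and the arrays overlapped on every day. On day 7, the day of its highest levels, Slc7a11 measured 12.96, 13.21 and 13.17 with RTA-408 and 13.13, 12.59 and 13.34 with vehicle.

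Gsr, which regenerates reduced glutathione with NADPH, was higher with RTA-408 by 1.03 ± 0.34 on day -4 and by 1.02 ± 0.34 on day 1, neither of which passed (adjusted p = 0.9859 and 0.9999). On day -4 the RTA-408 arrays were at 10.63, 10.90 and 10.08 against 9.40, 9.24 and 9.90. On day 1 they were at 10.49, 10.48 and 9.99 against 9.14, 9.19 and 9.57. On both days the arrays of the arms were separate. The difference was 0.35 on day 3, 0.49 on day 7 and -0.21 on day 14, where vehicle replicate 3 at 10.56 was above all RTA-408 arrays.

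Of the peroxidases, Gpx2 had the largest drug differences. It encodes an isoform known from epithelia, above all that of the gut. On day -4 Gpx2 was at 9.02, 10.18 and 7.99 with RTA-408 and at 7.89, 7.52 and 7.10 with vehicle (1.56 ± 0.49, adjusted p = 0.8917), without overlap. By spike-in set that difference was 2.29 in set I and 0.10 in set II. On day 1 it was 1.02 ± 0.49, with vehicle replicate 2 at 8.85 above the lowest RTA-408 array at 8.84. Gpx3, the secreted plasma isoform, was higher by 0.41, 0.48, 0.55, 0.25 and 0.11 on the 5 days (SE 0.36 each). Its arrays were apart on day 1 (14.94, 14.30 and 14.85 against 14.26, 14.13 and 14.26) and on day 3 (14.72, 13.73 and 14.04 against 13.48, 13.65 and 13.69). The cytosolic Gpx1 and the membrane-lipid peroxidase Gpx4 stayed within -0.05 to 0.27 and 0.06 to 0.52, and none of these passed.

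Counted over the 9 genes, RTA-408 arrays lay wholly above vehicle arrays for 4 genes on day -4 (Gclc, Gclm, Gsr and Gpx2), where 3.89% of all features did so. On day 1 it was 6 genes (Gclc, Gclm, Gss, Gsr, Gpx1 and Gpx3) beside 4.71% of all features. Day 3 had 1 (Gpx3, 4.77%), day 7 had 2 (Gclc and Gsr, 4.69%) and day 14 had 0 (7.15%). RTA-408 arrays lay wholly below vehicle arrays for none of the 9 on any day, where 5.68%, 4.55%, 4.13%, 3.35% and 5.02% of all features did so on days -4, 1, 3, 7 and 14. The median difference of the 9 genes was 1.00 on day -4, 0.48 on day 1, 0.33 on day 3, 0.10 on day 7 and -0.21 on day 14, against -0.02 to 0.02 for the median of all features. On the days themselves these differences come from the same 6 rats, so the days are not independent.

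**Figure D2:**
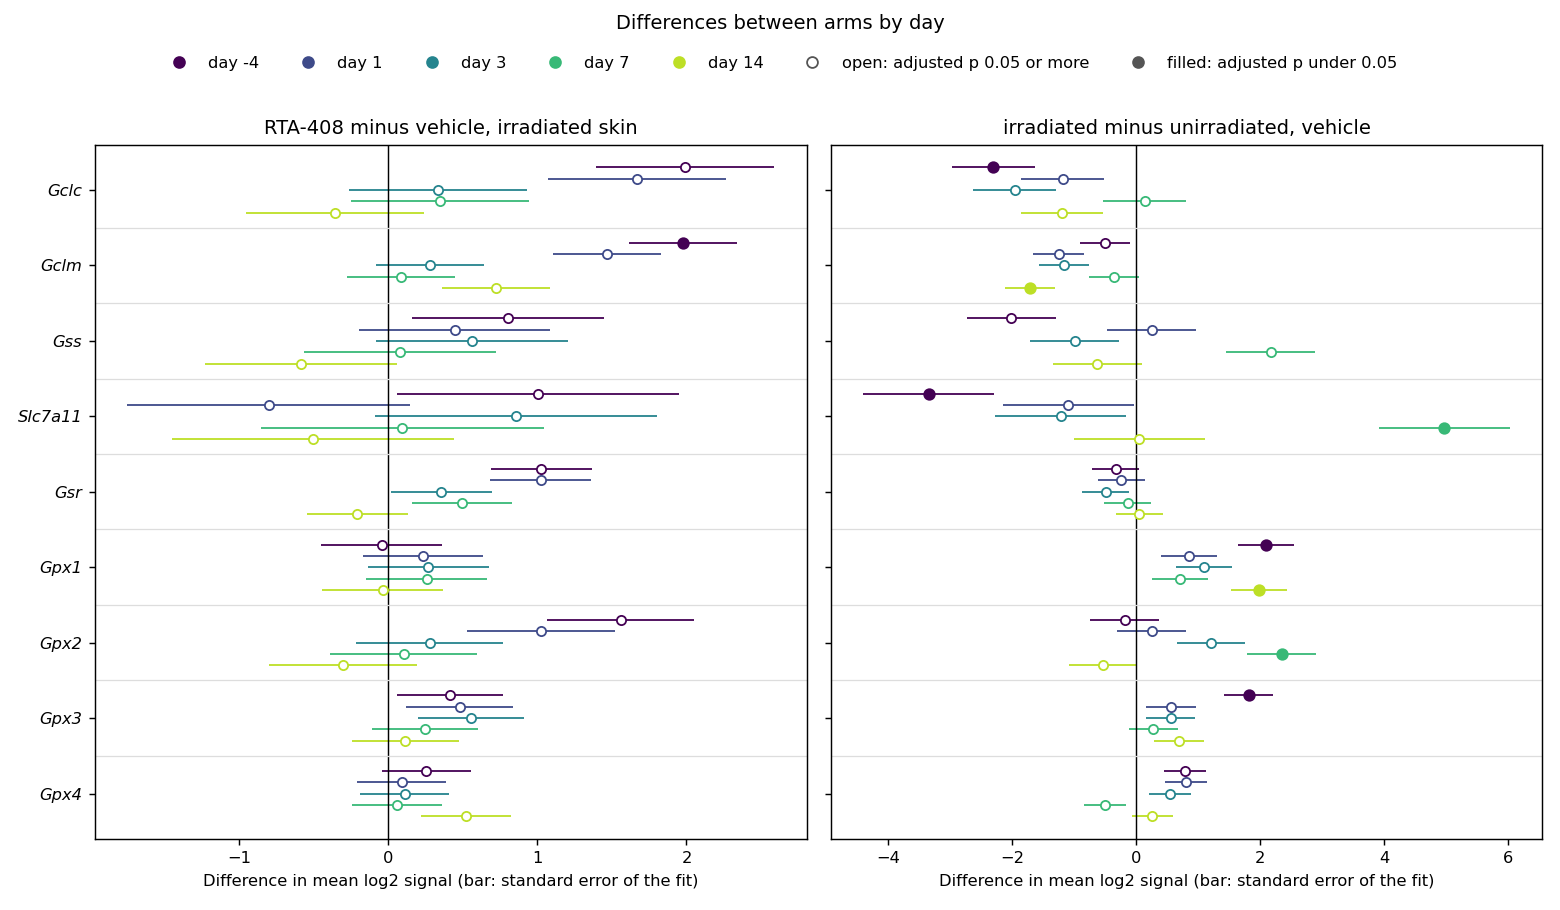
Differences in mean log2 signal (horizontal axis, standard error as bar) for each of the 9 genes on 5 days, RTA-408 minus vehicle on the left and irradiated minus unirradiated vehicle on the right, with an own scale for each side. Filled points passed at an adjusted p under 0.05: Gclm on day -4 on the left, and 8 points on the right, among them Slc7a11 at -3.35 on day -4 and 4.97 on day 7.

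Whether these differences changed with time was tested directly. The F-test of the change of the drug difference over the 5 days called 3 features of all (0.0129%) and none of the 9 genes. Gclm came closest (F = 4.88, adjusted p = 0.8191, limma). The contrast of days -4 and 1 with days 7 and 14 was 1.84 ± 0.60 for Gclc, 1.39 ± 0.49 for Gpx2, 1.32 ± 0.36 for Gclm and 0.88 ± 0.34 for Gsr. None passed (smallest adjusted p = 0.4189, for Gclm), where 0.0819% of all features did. Without RTA-408 replicate 3 on all days the Gclm contrast was 1.87 and passed (adjusted p = 0.0105).

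A mean over the 5 days was taken for each rat, so that the rat is the replicate. For Gclm the 3 RTA-408 rats were at 11.04, 10.67 and 10.42 and the 3 vehicle rats at 9.77, 9.72 and 9.91 (difference 0.91 ± 0.16, adjusted p = 0.8285). For Gclc they were at 9.33, 8.84 and 8.77 against 8.26, 8.06 and 8.23 (0.80 ± 0.16, adjusted p = 1). RTA-408 rats were above all vehicle rats for 4 of the 9 genes (Gclc, Gclm, Gpx2 and Gpx3), where 3.95% of all features were so placed. Gsr was higher by 0.54 with 1 vehicle rat (9.78) above the lowest RTA-408 rat (9.69). No feature passed on these means (limma; 790 features had an unadjusted p under 0.05), Gclm and Gclc included.

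**Figure D3:**
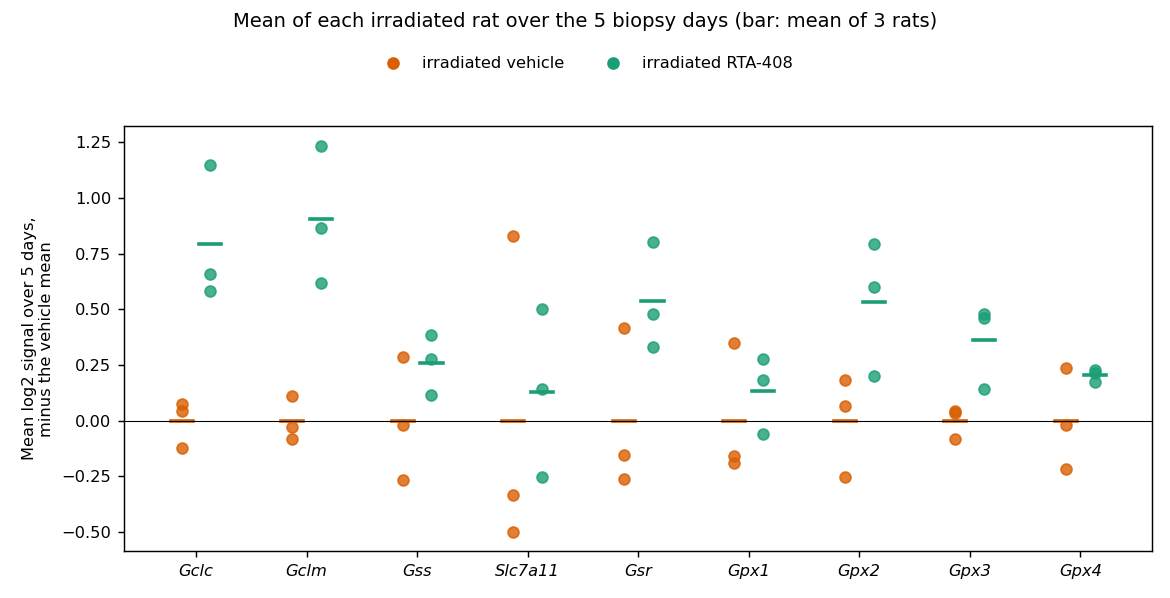
Mean log2 signal of each irradiated rat over the 5 biopsy days, minus the vehicle mean of the gene (vertical axis), for the 9 genes (horizontal axis), with 3 rats per arm as points and their mean as a bar. RTA-408 rats lie wholly above vehicle rats for Gclc, Gclm, Gpx2 and Gpx3, and the arms overlap for Gss, Slc7a11, Gsr, Gpx1 and Gpx4.

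The second question was how irradiated differed from unirradiated vehicle skin, with 3 irradiated arrays against 2 unirradiated ones on each day. Of 45 gene-by-day differences, 8 passed. On day -4 Gclc and Slc7a11 were lower and Gpx1 and Gpx3 higher, on day 7 Slc7a11 and Gpx2 were higher, and on day 14 Gclm was lower and Gpx1 higher. Days 1 and 3 had none. All features called came to 7.42%, 2.10%, 1.30%, 4.02% and 6.96% on days -4, 1, 3, 7 and 14. By direction, higher and lower, these were 3.23% and 4.19% on day -4, 1.20% and 0.901% on day 1, 0.656% and 0.647% on day 3, 2.69% and 1.33% on day 7, and 4.43% and 2.53% on day 14. Irradiated arrays lay wholly above unirradiated ones for 3, 3, 2, 4 and 2 of the 9 genes on the 5 days, beside 23.6%, 16.5%, 15.8%, 16.6% and 13.3% of all features. They lay wholly below for 4, 2, 2, 2 and 2 genes, beside 18.3%, 17.7%, 12.2%, 20.4% and 11.8%.

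On day -4 Slc7a11 was at 7.54, 10.34 and 7.89 in irradiated and at 11.78 and 12.09 in unirradiated skin, a difference of -3.35 ± 1.06 (adjusted p = 0.04678). Gclc was at 8.25, 8.80 and 8.39 against 10.55 and 11.02 (-2.30 ± 0.67, adjusted p = 0.02896). Gss was at 7.32, 8.27 and 7.93 against 9.89 and 9.81 (-2.01 ± 0.72) and did not pass (adjusted p = 0.08081), although it did in the fit of these 5 arrays alone (adjusted p = 0.01108). In all 3 genes every irradiated array was below both unirradiated ones. Hair shaft keratins were also apart that day, at 5.4, 9.9 and 8.8 against 17.3 and 17.4. The part of the hair shaft in the 3 differences was not tested. Slc7a11 and Gclc lost their calls without either unirradiated array and without irradiated replicate 1 or 3, with adjusted p up to 0.2468 for Slc7a11 and 0.2312 for Gclc. With the spike-in set as a block the adjusted p was 0.08743 for Slc7a11 and 0.06308 for Gclc. Within set I, with 2 arrays in each group, Gclc differed by -2.19 (adjusted p = 0.0168) and Slc7a11 by -2.82 (adjusted p = 0.09817).

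On day 7 the order for Slc7a11 was opposite. The irradiated vehicle arrays reached 13.13, 12.59 and 13.34 while the unirradiated ones were at 7.70 and 8.41, a difference of 4.97 ± 1.06 (adjusted p = 0.005963). This was the widest gap among the 45 differences, and within spike-in set III it was 5.18 with 2 arrays in each group. Without either unirradiated array it was 4.61 or 5.32 and no longer passed (adjusted p = 0.07104 and 0.05647). The change over the 5 days passed for Slc7a11 alone of the 9 genes (F = 8.58, adjusted p = 0.01471), where 2.16% of all features passed. Without irradiated replicate 3 on all days F was 5.85 (adjusted p = 0.1135) and without unirradiated replicate 2 it was 7.00 (adjusted p = 0.06706). With the rat as a fixed block F was 5.09 (adjusted p = 0.1727).

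Days -4 and 7 were not compared within a group by a test. The unirradiated arrays were in spike-in set I on day -4 and in set III on day 7. The irradiated vehicle arrays were in sets I and II on day -4 and in sets II and III on day 7. Slc7a11 in irradiated vehicle skin was at 8.59 ± 1.52 on day -4 and 13.02 ± 0.39 on day 7 (n = 3 each), and in unirradiated skin at 11.93 ± 0.21 and 8.05 ± 0.50 (n = 2 each), with replicate 2 from a different rat on day 7 than on day -4. Beside it on day 7, hair shaft keratins were low in both groups, at 5.2, 4.9 and 5.0 irradiated and 7.2 and 5.1 unirradiated. Neutrophil genes were at 8.9 to 10.1 in the 6 irradiated arrays of both arms and at 6.1 and 7.0 in the unirradiated ones. Of those 6 genes, Mmp8, Csf3r and Cxcr2 were at or below the negative controls on 45, 39 and 34 of the 46 arrays. S100a8 (5.12 to 15.59 over all arrays) and S100a9 (6.50 to 17.04) had the widest ranges in the list. Macrophage genes were at 11.1 to 12.8 against 8.8 and 9.0, and wound keratinocyte genes at 14.8 to 16.2 against 12.3 and 12.4. The part of these cell types in the Slc7a11 difference was not tested.

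Gpx2 was also high in irradiated skin on day 7, at 8.80, 9.67 and 9.88 against 7.01 and 7.20 (2.35 ± 0.55, adjusted p = 0.01224). The groups were well apart, and within spike-in set III the difference was 2.23 (adjusted p = 0.05637). The call was lost without irradiated replicate 3 (2.13, adjusted p = 0.07362) and without either unirradiated array (adjusted p = 0.09774 and 0.1066). By day 14 Gpx2 was at 7.46, 7.10 and 7.61 irradiated and 8.79 and 7.07 unirradiated, with overlap. Gss on day 7 was at 8.54, 8.59 and 9.60 against 6.81 and 6.68. It missed the threshold (2.17 ± 0.72, adjusted p = 0.08104), and passed within set III (adjusted p = 0.04939), with the set as a block (0.04583), with array weights (0.03295) and in the fit of these 5 arrays alone (0.01667).

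Gclm was below its unirradiated level in irradiated vehicle skin on every day, with differences of -0.51, -1.25, -1.17, -0.36 and -1.72 (SE 0.41 each), and every irradiated array was below both unirradiated ones on each of the 5 days. Only day 14 passed, at 9.52, 8.80 and 8.87 against 11.32 and 10.24 (adjusted p = 0.00849). Without unirradiated replicate 1 it was -1.18 (adjusted p = 0.2968) and without irradiated replicate 3 it was -1.62 (adjusted p = 0.05685). In the fit of these 5 arrays alone the adjusted p was 0.7548. Gclc differed by -1.19, -1.96, 0.14 and -1.20 on days 1, 3, 7 and 14, none of which passed. Hair shaft keratins were lower in every irradiated array on days -4, 1, 3 and 14, and overlapped on day 7. On day 14 they were at 5.2 to 13.02 irradiated against 17.7 and 14.6 unirradiated. Day 3 had 5.1 to 6.9 against 13.8 and 17.8. The part of the hair shaft in the Gclm and Gclc differences was not tested. On day 3 the unirradiated Gclc arrays were 8.81 and 10.99, and without the lower one the difference was -3.05 and passed (adjusted p = 0.02287).

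Gpx1, the most widely expressed peroxidase, was higher in irradiated skin on all 5 days, by 2.10, 0.85, 1.09, 0.70 and 1.97 (SE 0.45 each). Irradiated arrays were above both unirradiated ones on each day, and days -4 and 14 passed. On day -4 Gpx1 was at 14.56, 14.02 and 14.34 against 12.42 and 11.99 (adjusted p = 0.005402), and 1.97 within spike-in set I (adjusted p = 0.01848). That call was lost without either unirradiated array (adjusted p = 0.05118 and 0.09947). On day 14 Gpx1 was at 14.23, 14.75 and 16.12 against 12.39 and 13.74 (adjusted p = 0.006859). The highest of these, irradiated replicate 3, had macrophage genes at 15.4, neutrophil genes at 11.6 and T cell genes at 10.1. In the other irradiated arrays these were at 10.5 and 11.8, 6.9 and 8.3, and 6.2 and 7.5. The T cell genes Cd3e, Cd3d and Cd3g were at or below the negative controls on all 46 arrays, so the mean of 10.1 was set by Cd4 and Cd8a. Without irradiated replicate 3 the Gpx1 difference was 1.43 (adjusted p = 0.1016), and without unirradiated replicate 1 it was 1.30 (adjusted p = 0.2968).

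Gpx3 was higher by 1.81 ± 0.40 on day -4, at 13.87, 14.42 and 14.82 against 12.89 and 12.22 (adjusted p = 0.005815). The arrays were apart, and the call was lost only without unirradiated replicate 2 among the 5 arrays (1.48, adjusted p = 0.1365). Beside Gpx3 and Gpx1 on that day, genes of other cell types were also higher in every irradiated array. Fibroblast genes were at 16.59 to 17.16 against 15.68 and 15.72, macrophage genes at 8.72 to 9.52 against 7.34 and 7.99, and endothelial genes at 9.28 to 9.47 against 7.69 and 8.40, while hair shaft keratins were lower. The part of these cell types in both calls was not tested. On later days the Gpx3 difference was 0.56, 0.56, 0.28 and 0.69, and none passed. Gpx4 was higher by 0.79 and 0.80 on days -4 and 1 and differed by -0.50 on day 7 (SE 0.34 each), with no call. Gsr stayed within -0.49 to 0.05 on the 5 days and its arrays overlapped on each.

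**Figure D4:**
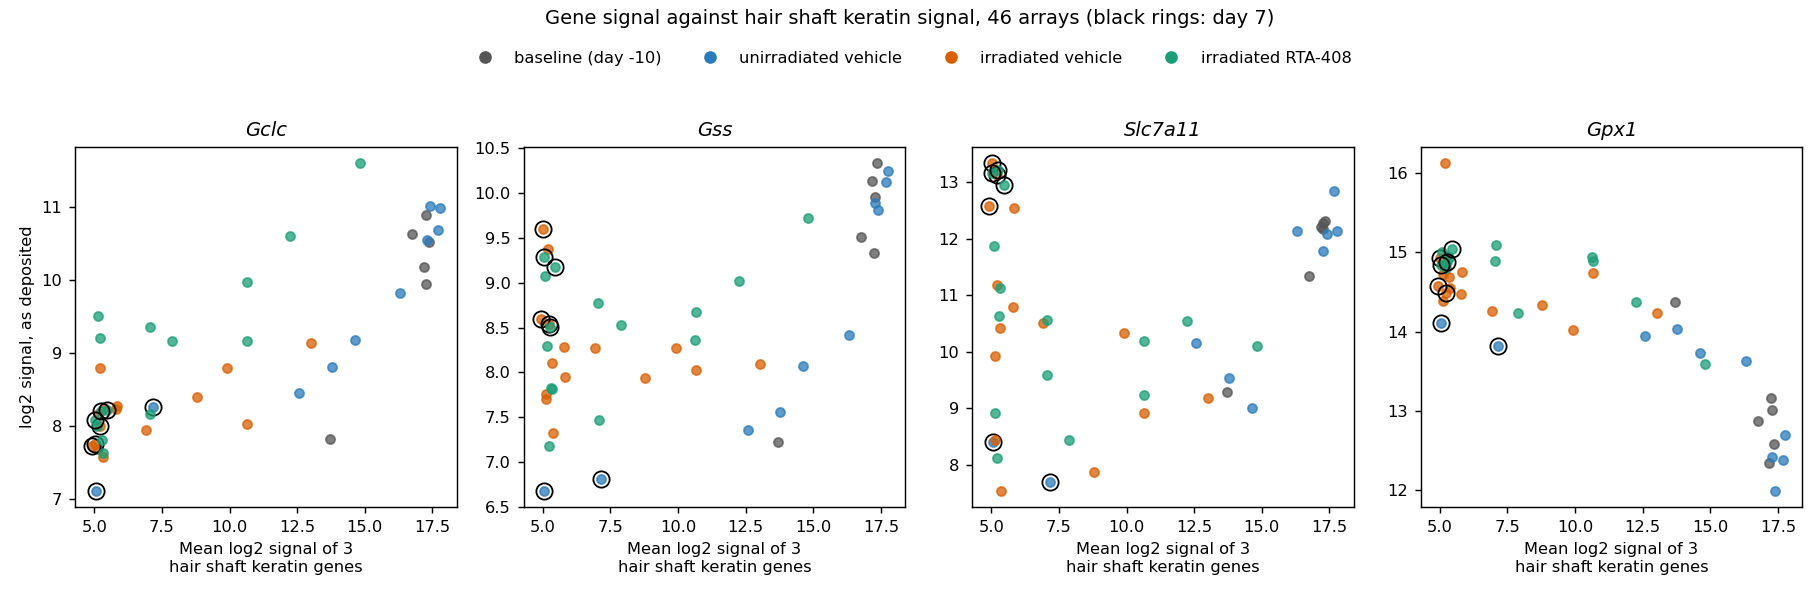
Deposited log2 signal of Gclc, Gss, Slc7a11 and Gpx1 (vertical axes) against the mean log2 signal of the 3 hair shaft keratin genes (horizontal axis), 1 point per array for 46 arrays, coloured by arm, with day 7 ringed in black. Baseline and most unirradiated arrays lie at the right, and the irradiated arrays of day 7 lie at the left with Slc7a11 at 12.59 to 13.34.

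Each arm was also set against the 6 baseline arrays, which all arms share. Baseline means were 10.00 ± 1.11 for Gclc, 10.80 ± 0.31 for Gclm, 9.42 ± 1.14 for Gss, 11.60 ± 1.19 for Slc7a11 and 9.62 ± 0.42 for Gsr. The peroxidases were at 13.06 ± 0.71 (Gpx1), 7.62 ± 0.82 (Gpx2), 12.93 ± 0.68 (Gpx3) and 12.48 ± 0.58 (Gpx4) (SD, n = 6). Of 45 differences, 19 passed in irradiated vehicle skin, 21 in irradiated RTA-408 skin and 3 in unirradiated skin. The share of all features called was 10.7%, 9.72%, 8.54%, 14.0% and 15.4% on the 5 days with vehicle, 5.79%, 11.0%, 9.69%, 15.8% and 10.2% with RTA-408, and at most 2.71% (day 7) unirradiated. Arrays of days 3, 7 and 14 share no spike-in set with baseline, so no value within a set can be given there, and the sets are linked only through set II, which holds irradiated arrays of all 5 days. With the set as a block 5, 8 and 0 differences passed, and with the rat as a fixed block, since baseline and later arrays share most rats, 3, 16 and 0.

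Gpx1 was above baseline in both irradiated arms on all 5 days, by 1.24 to 1.98 with vehicle and by 1.20 to 1.94 with RTA-408, and all 10 differences passed. With the rat as a fixed block, days 1, 3, 7 and 14 of RTA-408 (1.86 to 2.13) and day 14 of vehicle (1.50) still passed. In unirradiated skin Gpx1 differed from baseline by -0.85 to 0.90 and no day passed. Gpx3 was above baseline by 1.85, 1.76, 1.23 and 1.21 with RTA-408 on days -4, 1, 3 and 7, and by 1.44, 1.29 and 0.96 with vehicle on days -4, 1 and 7. All of these passed. Gpx2 was above baseline with RTA-408 on days -4, 1, 3 and 7 by 1.45, 1.52, 1.47 and 1.94, each past the threshold. With vehicle it passed on day 7 alone (1.83), after -0.11, 0.49 and 1.19 on the days before. Gpx4 was above baseline on days 1 and 3 in both arms, by 0.91 and 0.98 with RTA-408 and by 0.82 and 0.87 with vehicle, and these passed. With the spike-in set as a block, calls of Gpx1 were kept on day 1 in both arms, of Gpx3 on days -4 and 1 in both arms, and of Gpx2 and Gpx4 on day 1 with RTA-408, and the others of these peroxidase calls were lost. With the rat as a fixed block, all Gpx3 and Gpx4 calls with RTA-408 and the day 7 call of Gpx2 with vehicle were kept, and the other calls of these 3 genes were lost. On day 7 macrophage genes were at 11.1 to 12.8 in irradiated arrays of both arms against 8.0 to 9.1 at baseline. Fibroblast genes were at 17.2 to 17.6 against 15.9 to 17.2, and hair shaft keratins at 4.9 to 5.5 against 13.7 to 17.4. Endothelial genes overlapped (9.2 to 9.8 against 8.9 to 10.4). The part of cell types in the peroxidase calls was not tested.

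The ligase subunits were below baseline at late days. Gclm with RTA-408 was 1.66 above baseline on day -4 (adjusted p = 0.0009656) and 0.51 above on day 1, then below it on days 7 and 14 (differences of -0.94 and -1.02), and both late values passed. With vehicle Gclm was below baseline, with differences of -0.96, -0.96, -1.03 and -1.74 on days 1, 3, 7 and 14, and all passed. Gclc with RTA-408 was near baseline on days -4 and 1 (0.47 and -0.38, not called) and below it on days 3, 7 and 14, with differences of -1.73, -1.83 and -1.62, all called. With vehicle the Gclc differences of -2.05, -2.06 and -2.17 on days 1, 3 and 7 passed, and so did -3.01 for Slc7a11 on day -4. Under the rat block, the vehicle calls of Gclm were lost except on day 14, and those of Gclc and Slc7a11 were all lost. Under the set block, those of Gclm were all lost, while Gclc on day 1 and Slc7a11 on day -4 were kept. With RTA-408, the day -4 call of Gclm was kept under both blocks and its calls on days 7 and 14 were lost under both, and the 3 Gclc calls were kept under the rat block and lost under the set block. Hair shaft keratins were below all 6 baseline arrays (13.7 to 17.4) on the days of these lower calls in irradiated skin. With vehicle they were at 4.9 to 10.6 on days -4 to 7 and at 5.2 to 13.02 on day 14. With RTA-408 they were at 5.0 to 10.6 on days 3, 7 and 14. The part of the hair shaft in the lower calls of Gclm, Gclc and Slc7a11 was not tested. In unirradiated skin the 3 calls were all on day 7: Gclc at -2.31, Gss at -2.67 and Slc7a11 at -3.55. On that day the unirradiated hair shaft means of 7.2 and 5.1 were below all 6 baseline arrays (13.7 to 17.4), and the part of the hair shaft was not tested. Those 3 calls were lost without either day 7 array.

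Among the 9 genes, the group means that ran most alike over the 16 groups were those of Gclm and Gsr (Pearson r = 0.80), followed by Gclc and Gclm (0.77), Gpx1 and Gpx3 (0.73), Gss and Slc7a11 (0.71) and Gpx1 and Gpx4 (0.71). Gclc and Gpx1 ran most opposite (-0.69). Group means share rats and spike-in sets, so these values describe the 16 groups and carry no test. Among all features with a symbol, Gsr was most like Osgin1 (0.87), Akr7a3 (0.83) and Gclm, and Gclm most like Pex11a (0.89), Bace1 (0.87) and Purg (0.86). Slc7a11 was most like Sfnl1 (0.97), Ebna1bp2 and Tars1 (0.94 each), and Gss most like Gtf2f1 (0.95). Gclc was most like Purb (0.91) and Gpx2 most like Emc4 (0.89). Gpx1 was most like Psme1 (0.97), Gpx3 most like Tgfbr3 (0.96) and Gpx4 most like Synpo (0.94).

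Of 53 other glutathione genes measured, none was called in the drug comparison on any day, where 0% to 0.0733% of all features were. The 53 were Gpx5, Gpx6, Gpx7, Gpx8 and Slc3a2, and genes of breakdown, amino acid supply, transport, glutathione use and selenium supply. In the radiation comparison 3 of the 53 were called higher and 8 lower on day -4, beside 3.23% and 4.19% of all features. Day 1 had 1 and 1 (1.20% and 0.901%) and day 3 had 0 and 3 (0.656% and 0.647%). Day 7 had 2 and 1 (2.69% and 1.33%) and day 14 had 2 and 4 (4.43% and 2.53%). Chac1, which degrades glutathione inside cells, was called lower on days -4, 1, 3 and 14. On day -4 it was at 4.75 to 6.50 in irradiated arrays, 2 of 3 of them at or below the negative controls, and at 12.31 and 13.45 in unirradiated ones. Irradiated arrays were all at the negative-control level on days 1 and 3, so that Chac1 was lower there by at least 4.27 and 4.74 (adjusted p = 0.03132 and 0.02154). Cbs, the first enzyme from homocysteine towards cysteine, was lower by at least 4.05 on day -4 and 2.65 on day 3 (adjusted p = 0.002141 and 0.01916), counted from the same level. Ggt1, which cleaves glutathione outside cells, was lower by at least 2.39 on day -4 (adjusted p = 0.01248), and the aminopeptidase Lap3 differed by -3.54 on day -4 (adjusted p = 0.007476). Cth, which releases cysteine from cystathionine, was called lower on day 14 (adjusted p = 0.01264), with 2 of 3 irradiated arrays at or below the negative controls and none of the unirradiated ones. Glo1, a glutathione-dependent enzyme that removes methylglyoxal, was higher by 1.12 and 1.25 on days -4 and 1 (adjusted p = 0.01612 and 0.01867). Hair shaft keratins lay with these values on day -4. On day 1 they were at 12.6 and 16.3 in unirradiated arrays against 5.3 to 10.6 in irradiated ones. On days 3 and 14 they were at 13.8 and 17.8, and 17.7 and 14.6, in unirradiated arrays against 5.1 to 6.9, and 5.2 to 13.02, in irradiated ones. Their part was not tested. Leaving out 1 array ended each of these calls at least once, except that of Chac1 on day -4, with adjusted p up to 0.9222 (Cbs on day 3).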

How the data were processed

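RNA from skin punches (100 ng, mean integrity number 7.15) was labelled and 2.5 ug of cDNA hybridised to Clariom S rat arrays, per the labels' protocols. The authors deposited 1 log2 signal per feature and array. Their normalization was not stated in the labels or headers, and none was added. Of 24834 features, 1646 controls were left out. The annotation supplied for the array names 1 gene for 15049 of the 23188 features tested and none for 8139. Array medians were 6.84 to 6.95, negative-control medians 5.78 to 6.52, and arrays of a group correlated with r of 0.927 to 0.990. The number of arrays limits the precision.

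Groups follow the titles. One unirradiated array of day 1 (replicate 2) is described elsewhere in its labels as day 3, and the title was followed. With limma 3.58.1 (R 4.3.3), 1 model with a mean for each of 16 groups was fitted over the 46 arrays (30 residual degrees of freedom), with Benjamini-Hochberg adjustment over all features tested, after a test on simulated data. Arrays of 1 rat recur over days, so p-values rest on few animals. Replicate numbers were checked for pairing between arms: deviations from group means correlated from -0.378 to 0.254 over 15 pairs of the drug comparison and from -0.076 to 0.21 over 10 pairs of the radiation comparison. With 2 or 3 arrays per group these correlations cannot settle a pairing. The titles name different rats for equal numbers of different arms, so the numbers were not taken to pair arms. Baseline and later arrays of a rat do share the animal. Replicate 3 of both irradiated arms and the unirradiated rat that replaced another on days 7 and 14 had no baseline array. Arrays were placed in spike-in sets by the largest gap in the signal of spike-in controls. Where all arrays of a dim group were at or below the negative-control median of their array, the bright group's mean was compared with the mean of those medians, and written as at least. The 9 genes, the other lists and the tests were chosen with earlier results of these data known. Named beyond the 9 and Nqo1 are up to 4 called genes of a list per comparison and day with the largest differences, and up to 3 features most like each of the 9. Alternatives were quantile normalization, leaving out the 5797 dimmest features, array weights, leaving out arrays, the rat as random or fixed block, the spike-in set as block or taken alone, the replicate number as block and the compared groups alone.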

Additional observations from a re-analysis of the deposited data

Results flagged for a closer look

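In the 6 baseline arrays, replicate 4 stood apart as the lowest for Gclc (7.83, the other 5 at 9.95 to 10.89), Gss (7.23, others 9.33 to 10.34) and Slc7a11 (9.29, others 11.34 to 12.32). Its gap to the nearest array was 0.692, 0.6765 and 0.6776 of the whole range, above Dixon's critical value for 6 arrays, which about 1 in 20 groups pass by chance. The same array had hair shaft keratins at 13.7, against 16.8 to 17.4 in the other 5, and fibroblast genes at 17.2 against 15.9 to 16.2.

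The difference between irradiated and unirradiated vehicle skin changed over the 5 days for Slc7a11 (F = 8.58, adjusted p = 0.01471, limma). The difference, irradiated minus unirradiated, was -3.35 on day -4 and 4.97 on day 7, and the unirradiated arrays are only 2 on each day.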

How the results depend on the processing

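For the drug comparison, where 1 of 45 differences passed, 2 passed with array weights and 2 with the spike-in set as a block. In that comparison 0 passed in the compared groups alone, 0 with the replicate block (which takes the replicate number as paired) and 0 within the spike-in set that holds most arrays of a day. Leaving out 1 array gave 0 to 1. The radiation count of 8 ranged from 4 to 9 over left-out arrays, with 5 and 4 without unirradiated day -4 replicates 1 and 2. Against baseline, irradiated vehicle skin had 19 calls, but 5 with the set as a block, 3 with the rat as a fixed block and 12 in the compared groups alone (14 to 26 over left-out arrays). RTA-408 skin had 21, but 8 with the set as a block and 11 alone (15 to 25). Unirradiated skin had 3, but 0 under each of these 3 settings, and 0 to 4 over left-out arrays, with 1 without baseline replicate 1, 2 or 3 and 0 without either day 7 array. The change of the radiation difference over days was called for 1 gene, for 2 with array weights, for 0 with the rat as a fixed block and for 0 to 1 over left-out replicates. The contrast of early with late days called 0 genes, and 0 to 1 over left-out replicates. The block by replicate number left the radiation count at 8. No difference that had been called changed sign under any alternative run. The small number of arrays limits every count.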
